A study of Arabidopsis thaliana with 20 samples.

Results

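AT5G55180 and AT1G31335 are Arabidopsis thaliana genes whose signals were lower in the 4 seedling genotypes that carry a myb3r4 mutation than in the 6 that do not. They are 2 of the 13355 genes named on the arrays, and they were selected on those measured seedling signals, so the difference with myb3r4 is described here and not tested. The microarrays held 22810 probe sets, of which 13513 were paired with exactly 1 gene. Each of these 2 genes has 1 such probe set, 248100_at for AT5G55180 on chromosome 5 and 262558_at for AT1G31335 on chromosome 1.

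MYB3R proteins are transcription factors with repeats of the MYB domain that bind a short mitosis-specific activator element in the promoters of genes expressed at G2 and M phase. In Arabidopsis, MYB3R4 is known mainly as an activator of such genes and MYB3R3 and MYB3R5 as repressors that hold them down outside division, while MYB3R1 can act both ways. General annotation of Arabidopsis places AT5G55180 in glycoside hydrolase family 17, a large family whose best known members cut beta-1,3-glucan. That polymer, callose, lines plasmodesmata and is laid down in the new cell plate of a dividing plant cell. The gene table used here gave a product name to neither gene, and no role is stated for AT1G31335.

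The study hybridised RNA from 20 samples to 1 array each. Whole seedlings of 9 d came from 10 genotypes with 1 array per genotype. These were wild type (Columbia), the single mutants myb3r1, myb3r3, myb3r4 and myb3r5, and the combinations myb3r1 myb3r4, myb3r3 myb3r5, myb3r1 myb3r3 myb3r5, myb3r3 myb3r4 myb3r5 and myb3r1 myb3r3 myb3r4 myb3r5. The other 10 arrays came from first leaf pairs of wild type and of the triple mutant myb3r1 myb3r3 myb3r5. Each genotype had 2 leaf arrays of 5 d plants and 3 of 15 d plants. No leaf sample carried a myb3r4 mutation. Plants grew under continuous light, the labels name no allele, and the number of plants behind a sample is not stated. Nothing in the labels says whether replicates came from separate cultures, so the spread behind each p-value is that between these samples alone and may be technical.

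Values are MAS5 signals, the brightness of a probe set on a linear scale, with each array already scaled to a common trimmed mean. Signals below 33.1, the typical 25th percentile of an array, were raised to that floor before taking log2. AT5G55180 and AT1G31335 lay above the floor on all 20 arrays. The array annotation names no probe set for any of the 5 MYB3R genes, and knockout of their transcripts therefore has no check here. Of the 10 root hair and root patterning markers, only EXPA7 and EXPA18 were measured. Their summed signal was 241 to 389 in the seedlings with myb3r4 and 248 to 378 in the seedlings without it, against 14.3 to 92.0 in leaves. In these bulk samples, fewer cells of a type and less RNA per cell cannot be told apart.

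The AT5G55180 signal was between 1723 and 2458 in every seedling without a myb3r4 mutation. It was 2002 in wild type, 1999 in myb3r1, 2411 in myb3r3, 2458 in myb3r5, 2242 in myb3r3 myb3r5 and 1723 in myb3r1 myb3r3 myb3r5. With a myb3r4 mutation it was 1029 in the single mutant, 560 in myb3r1 myb3r4, 854 in myb3r3 myb3r4 myb3r5 and 602 in the quadruple mutant. The 4 arrays with myb3r4 thus all lay below the 6 without it, with a mean of 761 ± 221 (SD, n = 4 genotypes) against 2139 ± 282 (SD, n = 6 genotypes).

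AT1G31335 gave a lower signal with the same division between arrays. It was 641 in wild type, 554 in myb3r1, 563 in myb3r3, 665 in myb3r5, 756 in myb3r3 myb3r5 and 708 in myb3r1 myb3r3 myb3r5. It was 215 in myb3r4, 168 in myb3r1 myb3r4, 257 in myb3r3 myb3r4 myb3r5 and 320 in the quadruple mutant. The means were 240.0 ± 64.7 (SD, n = 4 genotypes) with myb3r4 and 648 ± 79.5 (SD, n = 6 genotypes) without it. Within the mutants of myb3r4 the order of the genotypes differed between the genes. The quadruple mutant was the highest of the 4 for AT1G31335 and the second lowest for AT5G55180, while myb3r1 myb3r4 was the lowest for both.

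**Figure D1:**
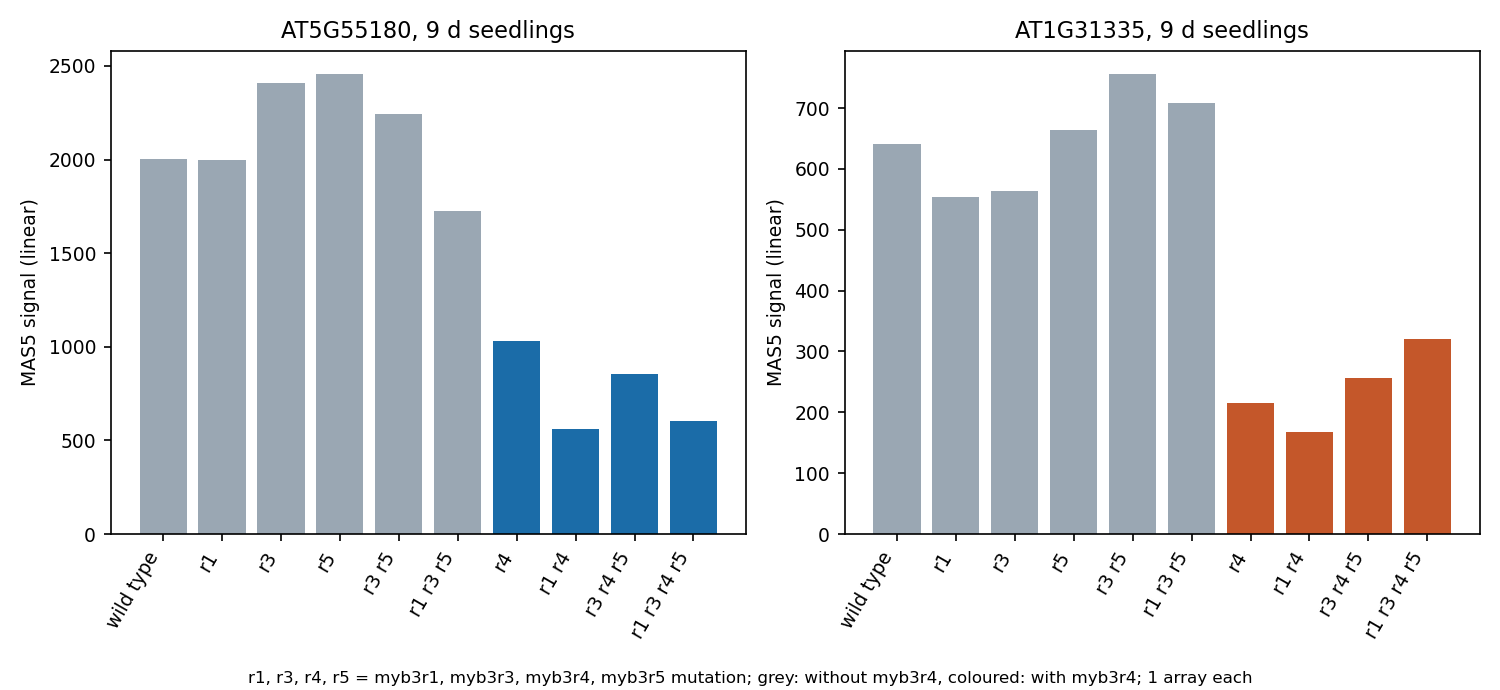
MAS5 signal (linear axis from 0) of AT5G55180 and AT1G31335 in the 10 seedling genotypes, 1 array and 1 bar each. Grey bars lack the myb3r4 mutation and coloured bars carry it; the coloured bars reach at most 1029 for AT5G55180 and 320 for AT1G31335, below every grey bar.

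Separation of the arrays by myb3r4 was not restricted to these genes. Among the 19626 probe sets that exceeded the floor in 1 or more seedlings, 92 (0.469%) had all 4 arrays with myb3r4 below the 6 without it, and 48 (0.245%) had all 4 above. How many probe sets separate under other splits of these arrays into 4 and 6 was not counted. These counts alone therefore link no probe set to myb3r4. The gap was measured as the lowest log2 signal of the 6 arrays minus the highest of the 4. It was 0.79 for AT1G31335, the second widest of all probe sets and the widest of those with a named gene. It was 0.74 for AT5G55180, the fifth widest of all and the third of those named.

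The widest gap, 1.94, belonged to 252078_at, for which no gene is listed, with signals of 30.5 to 44.1 with myb3r4 and 169 to 205 without it. Among named genes, only AT3G51720 lay between the 2 members, with a gap of 0.75. Its signals were 250 to 374 with myb3r4 and 630 to 1139 without it. The next named genes were AT3G55710 (gap 0.60), AT2G42110 (gap 0.56) and AT3G52110 (gap 0.54). At the edge of separation, AT2G21080 had a gap of 0.01 and AT1G61260 a gap of -0.00, the latter with its groups just overlapping. In all, 54 of 11180 named probe sets in use were lower without overlap, 39 of them with a mean of at least 4 times the floor in the 6 arrays.

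**Figure D2:**
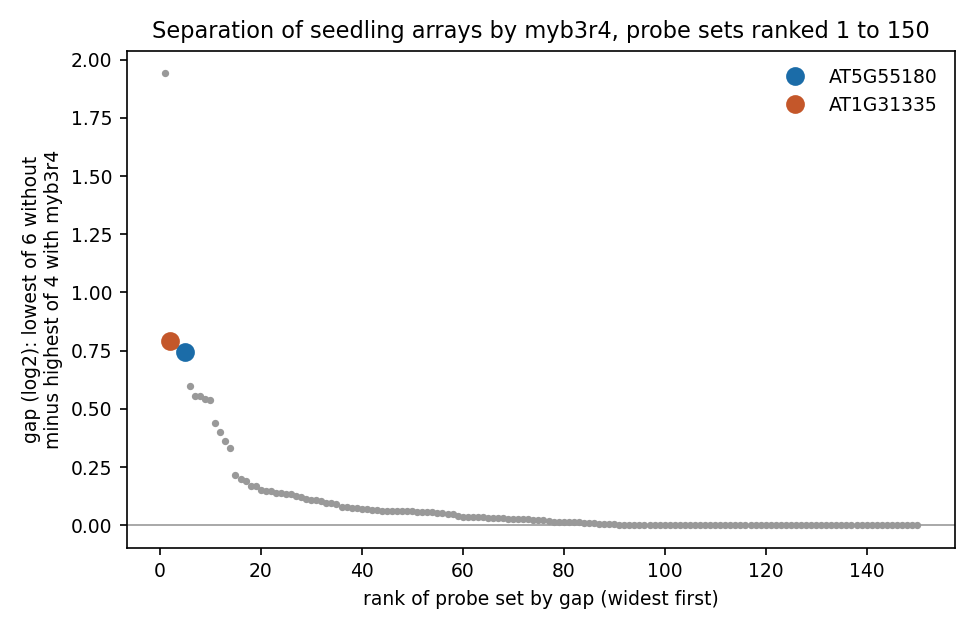
Gap in log2 signal between the lowest of the 6 seedling arrays without myb3r4 and the highest of the 4 with it (vertical axis), for the probe sets with the widest gaps in rank order (horizontal axis), each point 1 probe set. AT1G31335 at 0.79 and AT5G55180 at 0.74 sit at ranks 2 and 5 in the steep head of the curve, with an unnamed probe set first at 1.94.

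Of the 10 seedling genotypes, 8 form 4 matched pairs that differ only by myb3r4. For AT5G55180 the log2 difference, with minus without myb3r4, was -0.96 in otherwise wild-type seedlings, -1.84 in myb3r1, -1.39 in myb3r3 myb3r5 and -1.52 in myb3r1 myb3r3 myb3r5. The mean was -1.43 ± 0.36 (SD over 4 pairs), a 2.69-fold lower signal. For AT1G31335 the differences in the same order were -1.58, -1.72, -1.56 and -1.14. Their mean was -1.50 ± 0.25 (SD over 4 pairs), a 2.83-fold lower signal, while the median over all 19626 probe sets was 0.01. A signal at least 2-fold lower in each of the 4 pairs was seen for 2 probe sets (0.0102%), AT1G31335 and the unnamed 252078_at. AT5G55180 missed that mark in the wild-type background, where it was 1.95-fold lower.

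The same 8 arrays can be paired by myb3r1, and here the 2 genes differed. AT5G55180 was 1999 in myb3r1 against 2002 in wild type, a log2 difference of -0.00. Adding myb3r1 to myb3r4 gave -0.88, adding it to myb3r3 myb3r5 gave -0.38, and adding it to myb3r3 myb3r4 myb3r5 gave -0.50. The mean log2 difference was -0.69 over the pairs that carry myb3r4 and -0.19 over those that do not, with 2 pairs each, so this contrast was not tested. For AT1G31335 the myb3r1 differences in the same order were -0.21, -0.35, -0.10 and 0.32, and their mean of -0.08 ± 0.29 (SD over 4 pairs) was smaller than their spread.

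The genes also differed when paired by the joint loss of myb3r3 and myb3r5. AT1G31335 was higher with it in each of 4 pairs, by 0.24 in wild type, 0.35 in myb3r1, 0.26 in myb3r4 and 0.93 in myb3r1 myb3r4, with a mean of 0.45 ± 0.33 (SD over 4 pairs). AT5G55180 was higher in 2 pairs and lower in 2, at 0.16, -0.21, -0.27 and 0.11 in that order, with a mean of -0.05 ± 0.22 (SD over 4 pairs). As single mutations against wild type, myb3r3 and myb3r5 gave log2 differences of 0.27 and 0.30 for AT5G55180 and of -0.19 and 0.05 for AT1G31335. With 1 array per genotype and arrays shared between pairs, none of these differences has a replicate check.

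**Figure D3:**
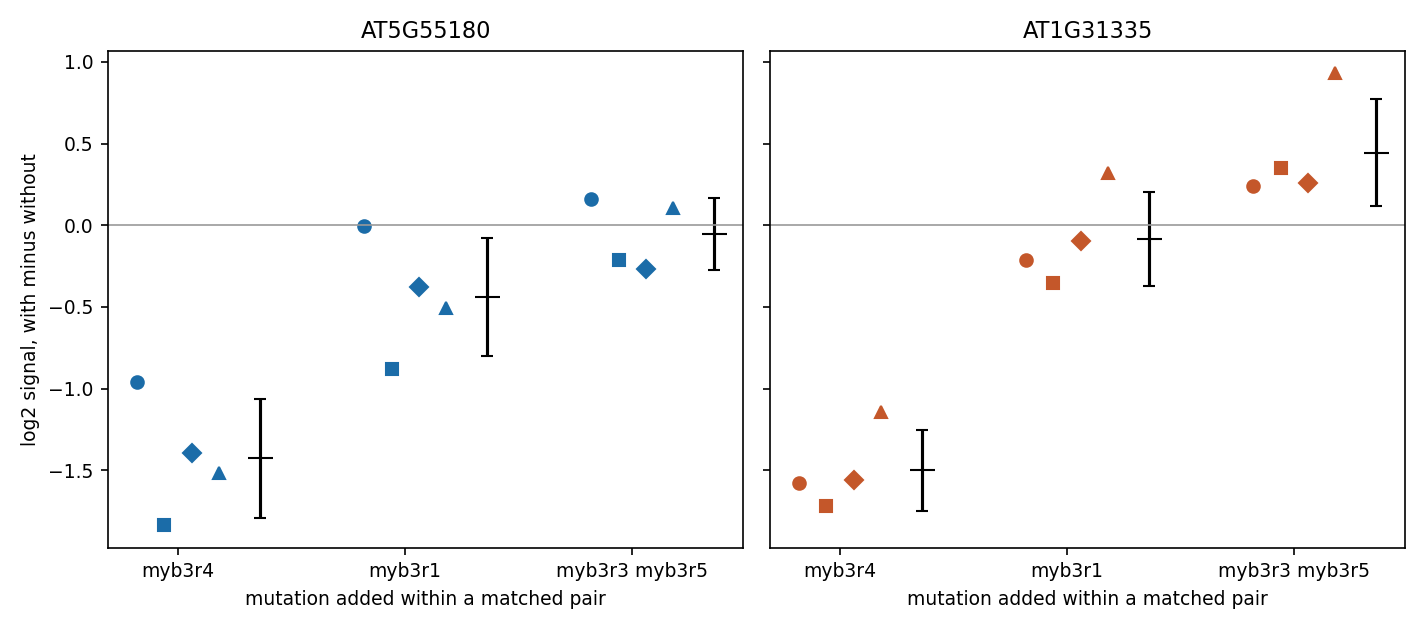
Log2 signal difference, with minus without the mutation named on the horizontal axis, for each of the 4 matched seedling pairs of AT5G55180 and AT1G31335; the circle is the wild-type background and the bar is the mean ± SD over 4 pairs. The myb3r4 pairs lie at or below -0.96 for both genes, while the myb3r1 and myb3r3 myb3r5 pairs lie between -0.88 and 0.93.

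A group of 8 measured G2 and M phase genes, out of 31 listed, showed no shared difference with myb3r4 in the seedlings. Their mean log2 difference over the 4 pairs was above 0 for 4 genes and below 0 for 4, with a median of 0.15. The 4 above 0 were 3xHMG-box1 at 0.37, 3xHMG-box2 at 0.34, AUR3 at 0.31 and KINESIN-12B at 0.30. The 4 below 0 were the mitotic kinase genes AUR1 and AUR2 at -0.01 and -0.11, BUBR1 at -0.26 and AT1G63100 at -0.70. AT1G63100, a GRAS family gene, was the only 1 of the 8 lower without overlap, at 179 to 254 with myb3r4 against 273 to 358 without it. Over all probe sets that share was 0.469%. The summed signal of the 8 genes was 3408 to 5860 with myb3r4 and 2986 to 5219 without it. Its part in the seedling signals of AT5G55180 and AT1G31335 was not tested.

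Of the 3 measured photosynthetic leaf markers, each had a mean below 0 over the myb3r4 pairs, with a median log2 difference of -0.27, and their summed signal ranged from 33480 to 35520 with myb3r4 and from 34240 to 43370 without it. The summed signal of 3 stomatal lineage markers was 194 to 314 with myb3r4 and 237 to 306 without it. That of 2 senescence markers was 266 to 401 with myb3r4 and 307 to 771 without it. No flower marker, no phloem or xylem marker and no callose synthase or callose-binding gene on the lists had a named probe set here.

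In wild type the order of the levels ran from young leaves through seedlings to mature leaves for both genes, with no overlap between neighbours in that order. Wild-type AT5G55180 was 3.30-fold higher in 5 d leaves than in seedlings and 3.88-fold higher in seedlings than in 15 d leaves. For AT1G31335 those ratios of mean signals were 3.12 and 6.66. The 15 d triple mutant range of AT5G55180, 444 to 2253, spanned the 4 seedling values with myb3r4 and 4 of the 6 without it. The 15 d ranges of AT1G31335, 60.3 to 138 in wild type and 106 to 242 in the triple mutant, reached no seedling value without myb3r4. These levels come from different tissues and ages and were not compared by a test.

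Leaf age was tested on arrays outside the seedling signals that selected the genes. The genes were, however, chosen with earlier results of these data known. AT5G55180 fell between 5 d and 15 d in wild-type leaves, from 6555 and 6639 to 133, 705 and 711. Every 15 d array lay below both 5 d arrays, and the first 15 d replicate was far below the others. By limma over all 16558 probe sets tested, the log2 change was -4.03 (SE 0.83), 16.3-fold, with an adjusted p of 0.0031 and n = 2 and 3. In the triple mutant the signals were 5683 and 4612 at 5 d and 444, 1747 and 2253 at 15 d, also without overlap. There the log2 change of -2.09 (SE 0.83), 4.25-fold, missed the threshold of 0.05 with an adjusted p of 0.060 by limma.

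AT1G31335 fell with leaf age in both genotypes. In wild type it went from 1985 and 2016 at 5 d to 138, 60.3 and 90.5 at 15 d, with a log2 change of -4.46 (SE 0.42), 22.0-fold, and a limma adjusted p of 4.5e-05. In the triple mutant it went from 2040 and 1719 to 242, 106 and 127. The log2 change was -3.66 (SE 0.42), 12.7-fold, with a limma adjusted p of 1.6e-04. Falls of this kind were common in these leaves. With age, 27.3% of all probe sets tested were called lower and 24.9% higher in wild type, and 27.1% lower and 25.9% higher in the triple mutant. A larger change in either direction than that of AT1G31335 in wild type was seen for 3.17% of probe sets, and than that of AT5G55180 for 4.53%.

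The arrays numbered 1 at 15 d stood apart for these genes. In both genotypes AT5G55180 was lowest there, at 133 and 444, and AT1G31335 was highest, at 138 and 242. The summed signal of the 3 photosynthetic markers was also highest there, at 46060 in wild type and 36490 in the triple mutant, against 29110 and 20840 in the other wild-type arrays and 6211 and 7340 in the other triple mutant arrays. The 2 senescence markers were lowest there, with a summed signal of 654 in wild type and 1348 in the triple mutant against 1739 to 2864 in the other 15 d arrays. The part of these marker differences in the gene values was not tested. Without both arrays, a setting added after seeing the data, the age change of AT5G55180 was -3.22 in wild type (limma adjusted p = 1.5e-05) and -1.37 in the triple mutant (limma adjusted p = 4.0e-04). That of AT1G31335 was -4.76 in wild type and -4.02 in the triple mutant, both still called.

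**Figure D4:**
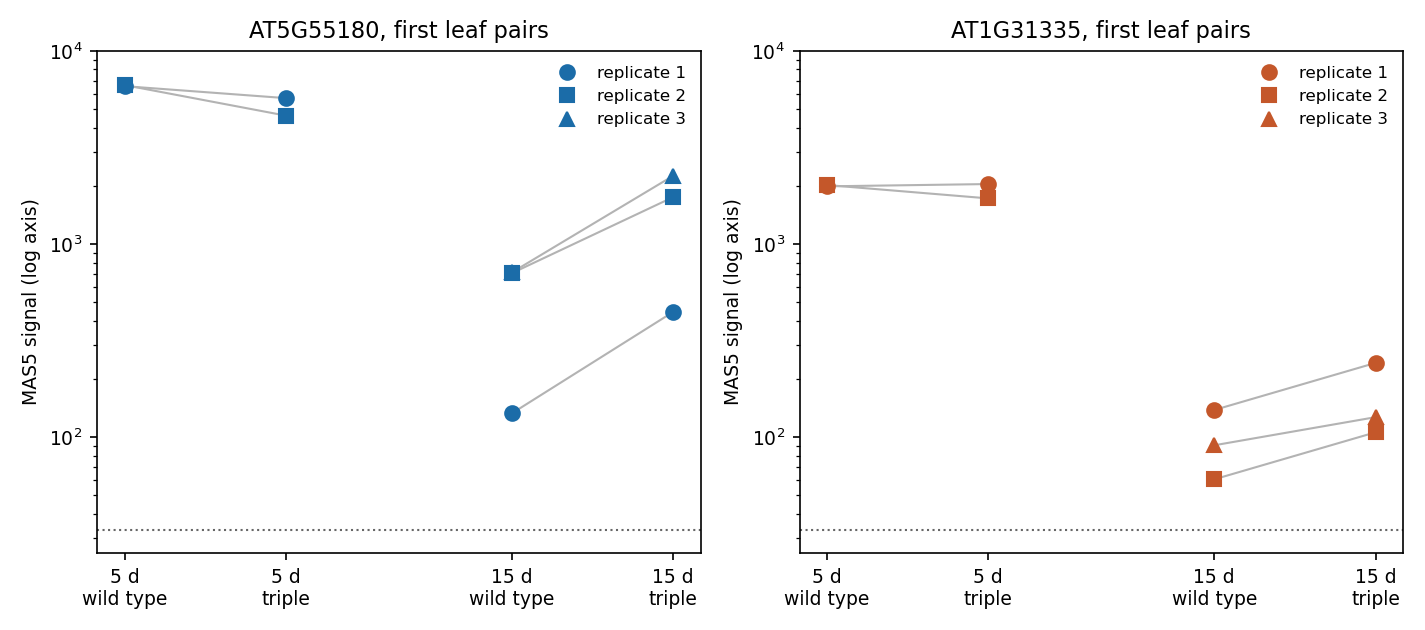
MAS5 signal (log axis) of AT5G55180 and AT1G31335 in first leaf pairs of wild type and the myb3r1 myb3r3 myb3r5 triple mutant at 5 d and 15 d, each point 1 array, with grey lines joining arrays of the same replicate number and a dotted line at the floor of 33.1. At 15 d every line rises from wild type to mutant, and the circles, replicate 1, are lowest for AT5G55180 and highest for AT1G31335.

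The triple mutant was next compared with wild type at each age, with myb3r4 intact in both. At 5 d neither gene was called by limma, where 0.127% of probe sets were. The log2 difference was -0.37 (SE 0.91) for AT5G55180 and -0.10 (SE 0.46) for AT1G31335, each with an adjusted p of 1.0. The 5 d mutant signals of AT5G55180, 5683 and 4612, were both below the wild-type ones, whereas those of AT1G31335 overlapped with wild type. Without the second 5 d mutant array the differences were -0.22 for AT5G55180 and 0.03 for AT1G31335.

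At 15 d the triple mutant mean of AT5G55180 was 1481 ± 933 (SD, n = 3) against 516 ± 332 (SD, n = 3) in wild type. The groups overlapped, since the first mutant array at 444 lay below 2 of the wild-type arrays. The log2 difference of 1.57 (SE 0.74), 2.97-fold, was not called by limma (adjusted p = 0.59), in a comparison where 0.749% of probe sets were. It was nevertheless higher in the mutant in 3 of 3 same-numbered arrays, by 3.35-fold, 2.48-fold and 3.17-fold.

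Same-numbered 15 d arrays deviated together over all probe sets, with correlations of 0.73, 0.60 and 0.57, so the fit with the replicate number as a block within each age is given beside these values. In that fit the 15 d difference of AT5G55180 was 1.57 (SE 0.14) and was called by limma with an adjusted p of 0.0055, where 2.47% of probe sets were called higher. Leaving out pair 1, 2 or 3 of the 15 d arrays from it gave adjusted p-values of 0.0080, 0.045 and 0.055, so the call was lost without pair 3. Without pair 1 the difference was also called with no block, at 1.49 (SE 0.18, limma adjusted p = 0.0035). Without the first wild-type array alone it was 0.77 and was not called.

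AT1G31335 at 15 d was 158 ± 73.3 (SD, n = 3) in the triple mutant and 96.2 ± 39.1 (SD, n = 3) in wild type, with overlapping arrays. The log2 difference of 0.70 (SE 0.38), 1.63-fold, was not called by limma (adjusted p = 0.65), and it was not called with the block either (adjusted p = 0.058). It was higher in the mutant in 3 of 3 same-numbered arrays, by 1.75-fold, 1.75-fold and 1.40-fold. The lowest difference with a single array left out was 0.35, without the first mutant array.

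The change of the mutant effect from 5 d to 15 d was 1.94 (SE 1.17) for AT5G55180 and 0.80 (SE 0.59) for AT1G31335. Neither was called by limma (adjusted p = 0.80 and 0.84), where 0.344% of probe sets were. With the block it was called for AT5G55180 (adjusted p = 0.034), where 0.453% of probe sets were called higher, and not for AT1G31335 (adjusted p = 0.16). The 5 d arrays form only 2 pairs, which is too few to show that their numbers pair them. Without pair 1 of the 15 d arrays the change was also called with no block, at 1.85 (SE 0.25, limma adjusted p = 0.0093). The call with the block was lost when pair 2 (adjusted p = 0.13) or pair 3 (adjusted p = 0.11) of the 15 d arrays was left out.

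The 8 G2 and M phase genes were also compared between the leaf genotypes, and most but not all were higher in the 15 d triple mutant. They are the measured part of 31 listed genes, chosen with earlier results of these data known, so their counts are a description. By limma, 5 of 8 rose in the 15 d triple mutant, where 0.749% of all probe sets were called, with a median log2 difference of 2.76 against 0.00 over all probe sets. With the block 6 of 8 were called, where 4.7% of all probe sets were. At 5 d 0 of 8 passed limma's test, with or without the block, and 0 of 8 had an unadjusted p under 0.05, with a median of -0.10. Their summed signal at 15 d was 155 to 389 in wild type and 2187 to 2340 in the triple mutant, without overlap, against 8864 to 11560 in the 5 d leaves. With age, 8 of 8 fell in wild type (median -4.36) and 6 of 8 in the triple mutant (median -1.89), where 27.3% and 27.1% of all probe sets were called lower. In 15 d wild type BUBR1 was under the floor on 3 of 3 arrays, and AUR2, AUR3, AT1G63100 and 3xHMG-box1 on 2 of 3. In the 15 d triple mutant AUR3 was under it on 3 of 3 arrays and AT1G63100 on 2 of 3. The 15 d differences and the falls with age are thus measured in part from the floor. None of these leaf samples carried a myb3r4 mutation, whereas the seedling differences of AT5G55180 and AT1G31335 lie between genotypes with and without it. The part of the 8 G2 and M phase genes in the 15 d values of AT5G55180 was not tested.

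AT5G55180 was set beside the other genes of glycoside hydrolase family 17. Of 53 listed members, 41 had a named probe set and 37 were above the floor on a seedling array. Over the myb3r4 pairs 18 of these had a mean above 0 and 19 below 0, with a median log2 difference of -0.01 against 0.01 over all probe sets. The gene with the next largest difference, AT1G66250, was lower at -0.35, with 381 to 497 with myb3r4 and 518 to 612 without it, a gap of 0.06. The third, AT3G15800, differed by -0.32 but lay near the floor, and its groups overlapped. Of the 37, 2 were lower without overlap, against 0.469% of all probe sets. They are AT1G66250 and AT5G55180, the latter chosen on this difference.

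In leaves, 25 of the family passed the filter on low signals. With age in wild type 12 fell and 5 rose by limma, in a comparison where 27.3% of all probe sets were called lower and 24.9% higher. The median log2 change was -0.71 against -0.01 over all probe sets. AT4G29360 fell by 4.82 on the log2 scale, AT1G66250 fell by 4.14 and AT3G07320 fell by 4.05, and AT5G55180 was the fourth in that order. AT4G29360 had a wild-type mean of 34.4 at 15 d, with 1 array at or under the floor, so its fall is measured in part from the floor. AT2G27500 rose by 3.61, from a mean of 85.0 to 1122. AT4G16260 and AT3G04010 also rose, from under the floor on both 5 d arrays to means of 5823 and 585 at 15 d. Those changes of at least 6.97 and at least 4.00 in log2 signal are measured from the floor.

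In the triple mutant 12 of the 25 fell with age and 6 rose, where 27.1% of all probe sets were called lower and 25.9% higher. The median change was -1.35 against -0.05. AT4G29360 fell by 4.71 there, AT1G66250 fell by 4.12 and AT3G07320 fell by 3.53. For the mutant against wild type, 0 of 25 were called by limma at 5 d, at 15 d or in the change between the ages, with medians of 0.06, 0.23 and -0.06. In each of these comparisons 2 of the 25 had an unadjusted p under 0.05, and an ordinary linear model called 0. With the replicate block limma called 1 at 5 d, 2 at 15 d and 1 in the change between the ages, where it called 0.314%, 4.7% and 1.09% of all probe sets. AT5G55180 itself was 1 of the 2 at 15 d and the 1 in the change between the ages. The 1 at 5 d was another member. The 15 d value of 1.57 for AT5G55180 was the highest of the 25, followed by AT1G32860 at 1.13.

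**Figure D5:**
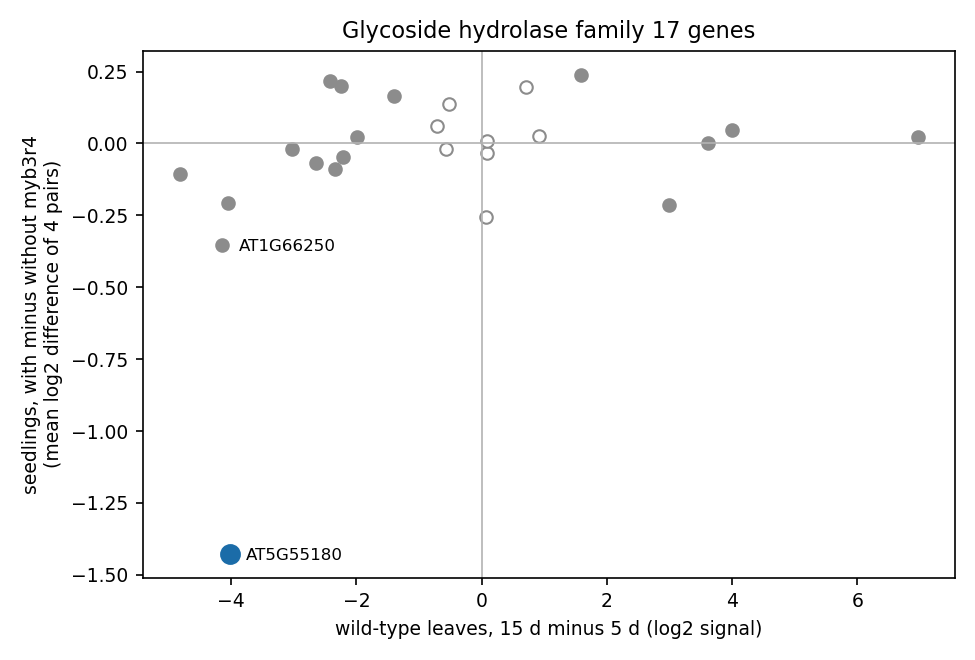
Each point is 1 of 25 glycoside hydrolase family 17 genes, with its wild-type leaf change from 5 d to 15 d in log2 signal on the horizontal axis and its mean seedling difference over the 4 myb3r4 pairs on the vertical axis; filled points passed limma's test for the leaf change. AT5G55180, which was chosen on the seedling signals of the vertical axis, lies alone there at -1.43, and AT1G66250 at -0.35 is the next lowest.

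The genes with the most similar patterns were listed by Pearson's r of log2 signal, as a description. Over the 10 seedling arrays, among 226 named probe sets that varied enough, AT5G55180 was closest to AT3G52110 (r = 0.97), AT3G51720 (r = 0.95) and AT3G02120 (r = 0.95). AT1G31335 was closest to AT5G55180 (r = 0.89), AT3G55710 (r = 0.88) and AT3G51720 (r = 0.86). These arrays fall into the groups with and without myb3r4 that chose the genes. Within the 6 arrays without it, r between AT5G55180 and AT1G31335 was -0.17.

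Over the 10 leaf arrays, among 5670 named probe sets, the closest to AT5G55180 were AT1G44760, AT1G06010 and AT3G63270 (r = 0.98 each). The closest to AT1G31335 were AT5G66000 (r = 0.995), 3xHMG-box2 (r = 0.99) for a chromatin protein of dividing cells and AT3G48425 (r = 0.99). The leaf arrays share the large change with age. Over them r between AT5G55180 and AT1G31335 was 0.76, and AT1G31335 ranked 1185 of 5670 in likeness to AT5G55180.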

How the data were processed

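The deposited values are MAS5 signal intensities of 1-colour Affymetrix arrays, per the submitters' processing notes; a MAS5 version and detection calls are not given in the sources used here, and the number of arrays limits precision. The trimmed mean (2% off each end) of each deposited array was 500.04 to 500.06, and no further scaling was applied beyond setting these equal. Genes came from the platform annotation (503 probe sets with several genes, 8730 without a listed gene), of which 13436 matched the TAIR10.1 gene table.

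Signals were floored at 33.1 and log2-transformed. Leaves were fitted with limma 3.58.1 in R 4.3.3 (10 arrays, 1 mean per group, variance trend, 6 residual degrees of freedom) with Benjamini-Hochberg adjustment over 16558 probe sets that exceeded the floor throughout 1 or more leaf groups, without the 64 controls; a call is an adjusted p under 0.05. The fit was also run on simulated data with independent noise on each array. That simulation lacks the shared deviations of same-numbered arrays and does not bear on them. Alternatives covered floor, scaling, filter, variance model, samples, left-out arrays and replicate blocks; leaving out same-numbered 15 d arrays together was added after the data were seen.

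Same-numbered 15 d arrays had correlations of 0.57 to 0.73 in their deviations from group means, and differently numbered ones -0.67 to 0.42; the numbers come from the labels. The pair of 5 d numbers gave 0.48. AT5G55180, AT1G31335 and all gene lists were chosen with earlier results of these data known. Other named genes are the 3 with the highest r for each gene and tissue, the 4 next widest seedling gaps, the genes nearest a gap of 0, and up to 3 called rises and falls per list. AUR1, AUR2, AUR3, BUBR1, KINESIN-12B, AT3G15800, AT1G32860 and the probe set 252078_at were added after their values were seen. No sequence was analysed here.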

Additional observations from a re-analysis of the deposited data

How the results depend on the processing

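Over 148 alternative values each, 135 of AT5G55180 and 146 of AT1G31335 kept their sign and, where tested, their side of the threshold. The seedling myb3r4 differences had means of -1.58 to -1.29 for AT5G55180 and -1.65 to -1.43 for AT1G31335 over the alternatives. The genes were chosen on these signals and all 4 pairs were lower, so leaving out a pair could not turn the sign. The counts above include these values. The wild-type age change stayed called for both genes in every alternative, with adjusted p up to 0.036 and 0.0019. Seedling means smaller than their spread turned sign with a pair left out: the myb3r1 mean of AT1G31335 (0.0043 without the pair on myb3r4) and the myb3r3 myb3r5 mean of AT5G55180 (2.7e-04 without the pair on myb3r1 and 0.018 without that on myb3r4). The 5 d leaf difference of AT1G31335 ranged from -0.22 to 0.028 with arrays left out and turned sign without the second 5 d mutant array. For AT5G55180 the triple mutant age change was called with the replicate block across ages (-2.52), without the first wild-type 15 d array, without the third mutant 15 d array and without both 15 d arrays numbered 1, over a left-out range of -2.54 to -1.37. Its 15 d difference was called with the replicate block within each age (1.57) and, with no block, without both 15 d arrays numbered 1 (1.49), and ranged from 0.77 to 2.29 with arrays left out; its change between ages was called with that block (1.94) and, with no block, without both 15 d arrays numbered 1 (1.85), and ranged from 1.13 to 2.66. The block changed no other call of the 2 genes. The cause was not tested. Counts of probe sets called moved more. At 5 d, against 21, limma called 12 after quantile normalization, 75 with no filter, 8 with a stricter filter, 72 by an ordinary linear model, 52 with the replicate block within each age, 6 with it across ages, and 0 from the 4 arrays alone (1585 at an unadjusted p under 0.05). With arrays left out the 5 d count ran from 0 (1636 at an unadjusted p under 0.05) to 523. At 15 d, against 124, it called 30 with the stricter filter, 779 with the block within each age, 73 from the 6 arrays alone, and 43 to 2140 with arrays left out. For the change between ages, against 57, it called 87 with no filter, 12 with the stricter filter, 181 with the block within each age, 34 with it across ages, and 0 (684 or, with the block, 2213 at an unadjusted p under 0.05) to 1465 with arrays left out. Low signals near the floor limit GH17 members more than these 2 genes, whose lowest signal was 60.3.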
